A study of Mus musculus with 4 samples.

Results

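Binding of TEAD1 was examined at the 39 protein-coding Hox genes of the mouse, out of 21631 protein-coding genes on the chromosomes that held peaks. Members were chosen by name, as symbols beginning Hoxa, Hoxb, Hoxc or Hoxd and ending in a number. Peaks were taken where the summit lay between the outer ends of a Hox cluster or within 100 kb of them, which gave 14 of 21285 peaks in one deposited list (list 1) and 23 of 21218 in the other (list 2).

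The data came from chromatin immunoprecipitation and sequencing (ChIP-seq) of neonatal mouse cardiac fibroblasts. Cells carried TEAD1 overexpression (OE-TEAD1) or its negative control (OE-NC), and each gave 1 ChIP and 1 input library, 4 libraries in all, without replicates. The sources used here give no mouse strain, overexpression vector, promoter or antibody. The labels tie neither peak list to OE-NC or OE-TEAD1, so no effect of overexpression is described, and differences between the lists cannot be set against a spread between cultures. Peak lists hold no expression values, and the labelled cell type was not checked against markers.

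TEAD1 binds DNA and recruits YAP and TAZ, coactivators that the Hippo pathway controls. Hox genes encode homeodomain transcription factors that specify position along the body axis. They sit in clusters in which the order of the genes follows the order of their expression domains, and the genes of a cluster are transcribed in the same direction. Fibroblasts of adult tissues keep Hox expression patterns that reflect the part of the body they come from. Low-numbered genes such as Hoxb1 act in the hindbrain and in heart progenitors, and high-numbered genes act in the trunk, limbs and posterior body.

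The clusters differed from one another in the peaks they held. Between the outermost genes of HoxC, on chromosome 15 at 102921131 to 103036856, there were 6 summits in list 1 and 7 in list 2. HoxA, on chromosome 6, had 0 in list 1 and 1 in list 2. HoxB, on chromosome 11 at 96194316 to 96368254, also had 0 and 1. HoxD, on chromosome 2 at 74668225 to 74765142, had none in either list.

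**Figure D1:**
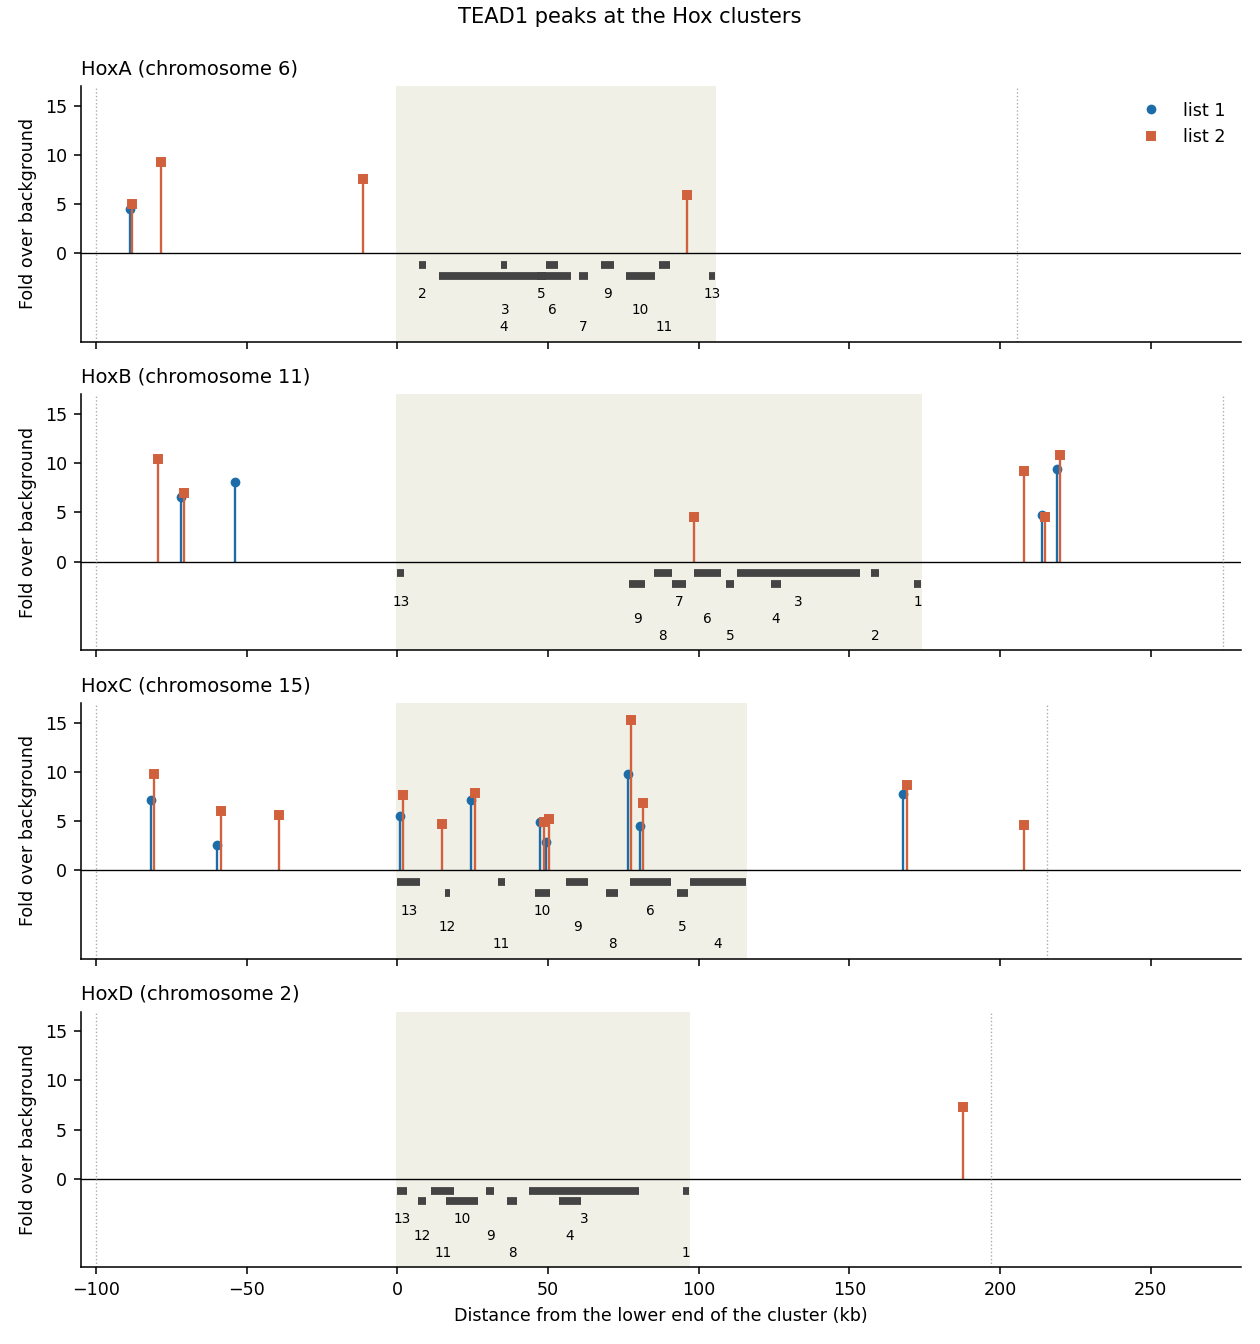
Peaks across the 4 Hox clusters: the x axis is the distance in kb from the lower end of each cluster, the y axis the deposited fold over background, with 1 stem per summit, circles for list 1 and squares for list 2, drawn slightly apart so that both can be seen. Dark bars are the Hox gene spans drawn, with their numbers, the shaded band is the cluster and dotted lines mark the 100 kb limits; inside the band HoxC holds 6 and 7 stems, HoxA and HoxB 1 each in list 2, and HoxD none.

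The density of summits inside HoxC was 51.8 per Mb in list 1 (exact Poisson 95% interval 19.03 to 112.8), against 8.37 per Mb over the whole list. In list 2 it was 60.5 per Mb (24.3 to 124.6), against 8.32. These are 6.19 and 7.27 times the density of the list, and both intervals lie above it. Intervals here cover counting only and take summits to fall independently of each other. Clumping of summits, which was not taken into account, would make them too narrow. HoxC is also set apart here as the cluster with the most summits of the 4. For the other clusters the counts were too small to separate from the list: at the overall density of list 1, HoxA would hold 0.883 summits, HoxB 1.46 and HoxD 0.811, and a count of 0 allows up to 3.69. Over all 4 clusters together, 6 summits in list 1 made 12.2 per Mb (4.47 to 26.5) and 9 in list 2 made 18.3 per Mb (8.36 to 34.7). With 100 kb on each side, the 4 windows held 1.29 times the density of list 1 (0.708 to 2.17) and 2.14 times that of list 2 (1.36 to 3.21). Without HoxC, these wider windows held 0.612 times (0.199 to 1.43) and 1.35 times (0.676 to 2.42).

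The same summits were also counted gene by gene, so the counts below are not separate evidence on HoxC. A peak was called nearby when its summit was no more than 10 kb from an end of the annotated gene span, on either side of that end. In list 1 this held for 7 of 39 Hox genes, or 17.9% (exact binomial 95% interval 7.54 to 33.5), beside 27.1% of all protein-coding genes. In list 2 it held for 12 of 39, or 30.8% (17.02 to 47.6), beside 26.6%. As a family, then, Hox genes had a nearby peak at a share that was not separable from the background in either list. Neighbouring Hox genes share peaks, and the 7 genes of list 1 rested on 6 summits and the 12 genes of list 2 on 9.

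Within the family the genes with a nearby peak in both lists were all HoxC genes. Over all protein-coding genes 21% had one in both lists. The Hox genes were Hoxc6, Hoxc8, Hoxc9, Hoxc10, Hoxc11, Hoxc12 and Hoxc13, 7 of the 9 members, or 77.8% in each list (40.0 to 97.2). This interval takes genes as independent, though neighbours share summits, and HoxC was set apart as the cluster with the most summits. The 5 genes with a nearby peak in list 2 alone were Hoxa11 and Hoxa13 (2 of 11 HoxA genes) and Hoxb6, Hoxb7 and Hoxb8 (3 of 10 HoxB genes). These 5 are 12.8% of the Hox genes, beside 5.59% of all protein-coding genes with one in list 2 alone. No Hox gene had one in list 1 alone, beside 6.02% of all genes. None in either list was found for 27 of 39, or 69.2%, close to the 67.3% of all genes. By number, the genes 1 to 4 were near a peak in 0 of 12 cases in each list (exact upper limit 26.5%). The genes 5 to 8 were so in 2 and 5 of 11, and the genes 9 to 13 in 5 and 7 of 16. The shares of all genes were 27.1% and 26.6%. Number cannot be told apart from cluster here, as Hoxc4 is the only HoxC gene among the genes 1 to 4. The upper limit takes genes as independent, though neighbours share the same stretches, so it does not separate these genes from the background.

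**Figure D2:**
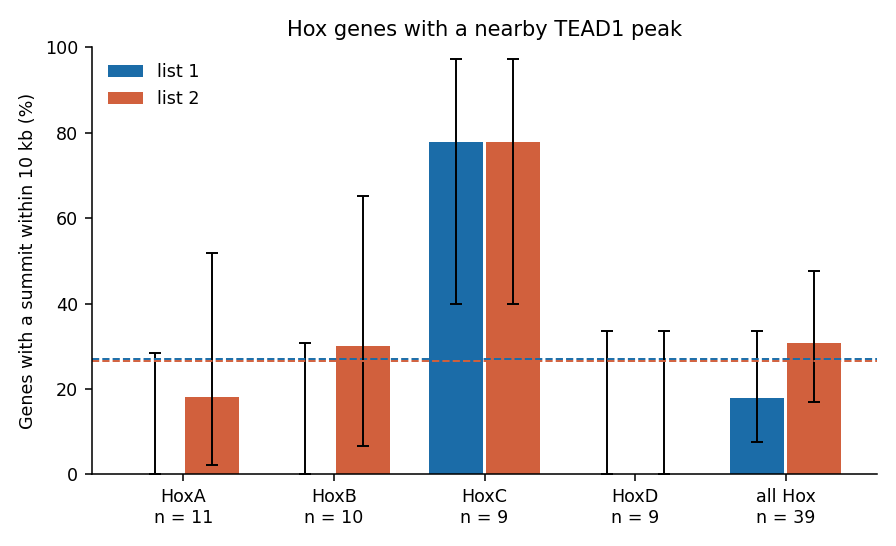
Share of Hox genes with a summit within 10 kb of an end of the gene (y axis, %), by cluster and for all 39 genes, with exact binomial 95% intervals; blue is list 1 and orange is list 2. Dashed lines mark the share of all protein-coding genes, 27.1% and 26.6%; the HoxC bars stand at 77.8% in both lists, and HoxA, HoxB and HoxD are at 0 in list 1.

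The number of Hox genes near a peak moved with the limit and the peak set. Within 1 kb there were 2 in list 1 and 2 in list 2, beside 5.57% and 5.23% of all genes, and within 5 kb 4 and 7, beside 18.1% and 17.5%. Within 50 kb there were 10 and 29, beside 57.6% and 58.2%. Among the 5000 strongest peaks of each list, 0 and 2 Hox genes had one within 10 kb, beside 7.23% and 7.14%. The latter were Hoxc6 and Hoxc8, through the site beside Hoxc6. With only the peaks found in both lists there were 7 in each, beside 19.9% and 19.9%.

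Summits inside gene spans were fewer. They occurred in 3 of 39 Hox genes in each list, the same HoxC genes (Hoxc6, Hoxc10 and Hoxc13), or 7.69% (1.62 to 20.9). Of all protein-coding genes 20.7% in list 1 and 20.8% in list 2 had a summit in the span. Most Hox genes are short, and gene length was not taken into account in this comparison.

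The site beside Hoxc6 carried the highest fold of all the Hox windows. Hoxc6 is a trunk-level Hox gene, and its annotated span on chromosome 15 runs from 102998226 to 103011882. The peak of list 1 spanned 102998010 to 102998340 and was 9.76-fold over background, with 29 ChIP fragments over a local background of 2.07. In list 2 the peak spanned 102998010 to 102998311 and was 15.3-fold, with 46 fragments over 2.07. The 95% counting intervals, 6.64 to 13.9 and 11.3 to 20.3, overlapped. The summits lay 0.096 kb and 0.044 kb below the lower end of Hoxc6 and 52 bp from each other.

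This site also lies at the start of the long non-coding RNA gene Gm29905, which is annotated on the minus strand. The promoter table of RefSeq (GRCm38.p6) holds no window for Hoxc6 but holds that of Gm29905, a stretch of 300 bases that the peaks overlap by 223 and 194 bp. The part outside the Hoxc6 span, chr15:102998118-102998225, holds both summits, at bases 96 (list 1) and 44 (list 2) counted from 1 at the 5′ end of the minus strand. It is shown because it is the sequence under the Hox window peak with the highest fold in each list, with any match to the searched motifs to be marked in capitals.
Hoxc6 and Gm29905: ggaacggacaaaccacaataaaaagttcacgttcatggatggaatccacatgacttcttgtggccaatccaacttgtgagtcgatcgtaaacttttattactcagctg

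Neither the TEAD core letters GGAATG nor the AP-1 letters TGANTCA, searched on both strands, occur in these 108 bases or in the rest of the Gm29905 window. Of all 32851 promoter windows of 300 bases, 14.7% hold GGAATG and 7.81% hold TGANTCA. A missing match says only that these letters are not in this window.

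Inside the Hoxc6 span there was another site in both lists. It was 4.47-fold in list 1 (22 fragments over 4.15, summit at 103002225) and 6.82-fold in list 2 (24 fragments over 2.67, summit at 103002149). Hoxc8, which helps to specify thoracic vertebrae, had no site of its own: the strongest summit within its reach was that beside Hoxc6, 3.86 and 3.91 kb from the nearer end of Hoxc8.

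Hoxc10, a gene of the lumbar level and hindlimb motor neurons, held 2 sites inside its span (102966796 to 102971898) in each list. The lower one was 4.94-fold in list 1, with a counting interval of 2.80 to 8.20. List 2 gave 4.90-fold there (3.01 to 7.59). The upper one was 2.91-fold in list 1 (1.68 to 4.76), where it was among the weakest peaks of the whole list, with 2.09% of peaks at or below its −log10 q of 2.09. In list 2 the upper site was 5.21-fold (3.24 to 7.98). Its fragment numbers were 14 and 19, over local backgrounds of 4.15 and 2.84. Hoxc9, a thoracic-level gene, was counted through these Hoxc10 sites, which lay 6.09 and 6.21 kb from its span at the closest. The stronger of them was the lower site in list 1, 7.87 kb away, and the upper site in list 2.

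Hoxc13, which acts in hair and nail differentiation, had a summit inside its span (102921131 to 102928814), 1.45 and 1.42 kb from the lower end. The site was 5.53-fold with 16 fragments in list 1 (3.30 to 8.78). In list 2 it was 7.66-fold with 23 fragments (4.97 to 11.3). Between Hoxc13 and Hoxc12 list 2 alone had a summit at 102935232, 1.59 kb from Hoxc12 and 4.74-fold over background (3.08 to 7.02). It was the only one of the 7 HoxC summits of list 2 without a partner in list 1.

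Hotair, a long non-coding RNA gene between Hoxc12 and Hoxc11 that is known from human cells for its association with Polycomb complexes, also had a summit in its span (102944062 to 102947946). The site was 7.12-fold in list 1 (24 fragments, 4.66 to 10.5) and 7.81-fold in list 2 (29 fragments, 5.32 to 11.1), with summits 9 bp apart. Hoxc12 and Hoxc11, both genes of the posterior body, had this as their strongest nearby peak, at 7.62 kb and at 8.29 and 8.30 kb.

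The HoxC sites thus ran over 79.6 kb from Hoxc13 to Hoxc6, with at most 27.2 kb (list 1) and 27.4 kb (list 2) between neighbours. The remaining 34.6 kb of the cluster in list 1 and 34.7 kb in list 2, which holds Hoxc5 and Hoxc4, had no summit. Hoxc5 was 11.8 and 11.9 kb from the nearest summit, just outside the 10 kb limit, and Hoxc4 15.9 kb in both lists.

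In the flanks of HoxC the site with the highest −log10 q (21.8 in list 1 and 25.7 in list 2) lay 81.2 kb below Hoxc13, with a summit at 102839925 in list 1 and 102839917 in list 2. It was 7.11-fold with 43 fragments over a raised local background of 5.18 in list 1, and 9.78-fold with 38 fragments over 2.99 in list 2. On the other side a site 52.8 kb above Hoxc4 was 7.71-fold (20 fragments) and 8.61-fold (26 fragments), a higher fold than the first site in list 1 and a lower one in list 2. Hoxc13 and Hoxc4 were the nearest protein-coding genes to these sites. Among list 2 peaks without a partner in this window, the one with the highest −log10 q lay 39.9 kb below Hoxc13 and was 5.66-fold (3.71 to 8.32).

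HoxA had a single site in both lists, and it lay in the lower flank, with a summit at 52067390 in list 1 and 52066831 in list 2. The nearest protein-coding gene was Skap2, an adaptor protein gene, 54.8 and 54.3 kb away. It was 4.52-fold with 13 fragments and 4.95-fold with 14. The other HoxA sites were found in list 2 alone. One was 63.9 kb from Skap2, also its nearest protein-coding gene (9.24-fold, interval 6.20 to 13.3). Another was 19.08 kb below Hoxa2 (7.57-fold, 5.00 to 11.0). The third, at 52251047, lay inside the cluster between Hoxa11 and Hoxa13 and was 5.93-fold with 16 fragments (3.54 to 9.41). It was 5.24 kb from Hoxa11 and 7.81 kb from Hoxa13, which pattern the middle and the distal limb, and 1.28 kb from an end of the non-coding gene Hoxa11os. Hoxa10 lay 10.2 kb from it and so was not counted.

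HoxB had its sites in the flanks except for one. That one, in list 2 alone, had its summit at 96292285, 0.529 kb from Hoxb6 and inside the non-coding gene Hoxb5os, and was 4.54-fold with 12 fragments (2.51 to 7.66). Hoxb6, Hoxb7 and Hoxb8, genes of the trunk, were all counted through this peak, which was weak: 15.3% of list 2 peaks had a −log10 q at or below its value of 4.36. Hoxb5, at 11.2 kb, was just outside the limit. With −log10 q of at least 5 these 3 genes had no nearby peak, and 7 of 39 Hox genes in list 1 and 9 in list 2 did, beside 21.8% and 22.7% of all genes.

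Above HoxB, a site 45.5 kb from Hoxb1 was called in both lists 1 bp apart and was 9.45-fold (27 fragments) and 10.8-fold (30 fragments). List 2 alone had a site 33.5 kb above Hoxb1 (9.25-fold, 6.21 to 13.3). On the other side, a list 2 peak 80.1 kb below Hoxb13 lay inside Calcoco2, an autophagy receptor gene, and was 10.5-fold (7.13 to 14.9). The list 1 peak without a partner, the only one of the 14, lay inside Ttll6, a tubulin-modifying enzyme gene, 53.2 kb below Hoxb13, and was 8.07-fold (5.46 to 11.5).

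HoxD, whose genes pattern the limbs and the genital region, lay in a long stretch without peaks. In list 1 no summit was called between 73629719 and 75588704 on chromosome 2, a gap of 1.96 Mb with the cluster inside it. Of the 21265 gaps between neighbouring summits of list 1, 170 were at least as long (0.799%), and the median gap was 29.2 kb. In list 2 the gap was 1.08 Mb, from 73773525 to 74855216, and 381 of 21198 gaps were at least as long (1.80%). The summit that ended it was 90.1 kb above Hoxd1, inside Mtx2, a mitochondrial import gene, and was 7.33-fold with 20 fragments (4.61 to 11.1). These percentages count gaps and not bases. Long gaps cover more of the chromosomes, so a given locus lies in one more often than the percentages state. As given above, the counts at HoxD were too small to separate from the list. Read coverage in these stretches was not analysed here.

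**Figure D3:**
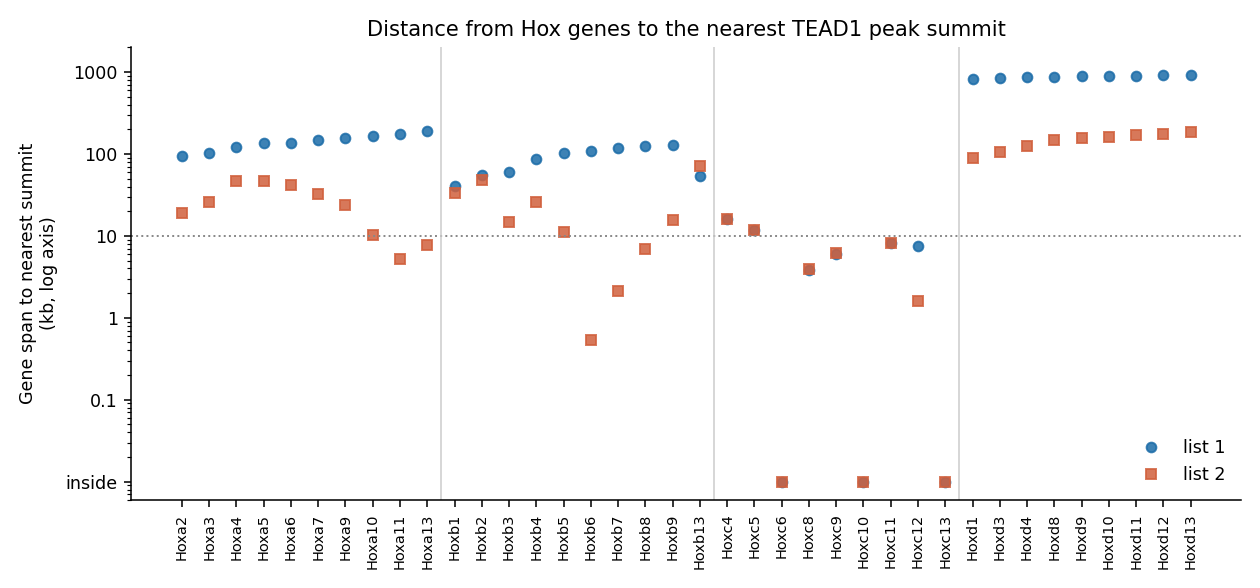
Distance from the span of each Hox gene drawn (x axis) to the nearest summit (y axis, kb, log axis; genes with a summit inside the span are set at the level marked inside), circles for list 1 and squares for list 2. The dotted line is the 10 kb limit; HoxC genes lie at most 15.9 kb from a summit in both lists, and HoxD genes lie 823.6 to 917.1 kb away in list 1 and 90.1 to 183.6 kb in list 2.

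Measured as the distance from a gene span to the nearest summit, 0 where a summit lay inside, the median over HoxC genes was 6.09 kb in list 1 and 3.91 kb in list 2. Over all protein-coding genes it was 32.4 and 31.5 kb. HoxA genes had medians of 137.5 and 23.7 kb, HoxB genes 94.9 and 15.3 kb and HoxD genes 888.5 and 155.0 kb. Distances at HoxC were close in both lists except for Hoxc12 (7.62 and 1.59 kb). At HoxA, HoxB and HoxD they differed more, and 1 or 2 peaks of list 2 set the distance for most genes of a cluster.

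Hox clusters also carry microRNA genes, and only one of them was near a peak. The miR-196 genes lie in 3 clusters and the miR-10 genes in 2. Their mature sequences (RefSeq, GRCm38.p6) are shown because members with the same seed, bases 2 to 8 in capitals, lay at very different distances from peaks.
mmu-miR-196a-5p: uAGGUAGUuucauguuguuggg
mmu-miR-196b-5p: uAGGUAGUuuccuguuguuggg
mmu-miR-10a-5p: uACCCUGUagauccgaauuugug
mmu-miR-10b-5p: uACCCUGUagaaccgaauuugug

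Mir196a-2, in HoxC between Hoxc10 and Hoxc9, lay 2.41 kb (list 1) and 2.53 kb (list 2) from the upper Hoxc10 site. Mir196a-1, in HoxB, makes the same mature miR-196a-5p and lay 124.1 and 27.0 kb from a summit. Mir196b, in HoxA, has the same seed and lay 162.7 and 20.9 kb away. The nearest summits were 91.5 and 24.9 kb from Mir10a in HoxB, and 862.6 and 129.1 kb from Mir10b in HoxD. Mir615, inside the Hoxc5 span, was 12.7 and 12.8 kb from the site within Hoxc6. Of the 10 non-coding genes listed for the clusters, 2 in list 1 (Hotair and Mir196a-2) and 3 in list 2 (those and Hoxa11os) had a summit within 10 kb. The share over all non-coding genes was not computed, so these counts cannot be set against a background.

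The promoter table held 24 windows for 22 of the 39 Hox genes, none of them under a peak of either list. GGAATG occurred in 2 of the 24 (8.33%) and TGANTCA in 1 (4.17%), beside 14.7% and 7.81% of all windows. The matches are shown, motif in capitals, because they are TEAD or AP-1 letters at Hox genes without a nearby peak.
Hoxd10: aattacaccgGGAATGttttcctagc
Hoxa9: aaggaaaaggGGAATGggaaggaagg
Hoxd11: ataaatgaaaTGACTCAgaatcccttc

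The Hoxd10 stretch is chr2:74691903-74691928 on the plus strand, where the motif begins 22 bases after the start used for its promoter window. That start lies inside the annotated Hoxd10 span (74684273 to 74695106) and not at its lower end. The Hoxa9 stretch is chr6:52227403-52227428 on the minus strand, with the motif beginning 48 bases before the start, and the Hoxd11 stretch is chr2:74679528-74679554 on the plus strand, 20 bases before it. Hoxd10 lay 893.6 and 160.1 kb from the nearest summit, Hoxa9 155.7 and 23.7 kb, and Hoxd11 901.7 and 168.2 kb. The median GC content was 57.7% in the Hox windows and 52.7% in all windows.

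Hox window peaks, clusters and flanks together, were of middling strength. In list 1 their median fold was 6.07 (range 2.54 to 9.76), beside 6.24 for the whole list, and in list 2 it was 6.99 (4.49 to 15.3), beside 6.83. Peaks inside the clusters were weaker, with median folds of 5.24 (6 peaks, list 1) and 5.93 (9 peaks, list 2). Their median percentiles by −log10 q were 37.5 and 36.8. Flank peaks had median folds of 6.86 (8 peaks) and 7.45 (14 peaks), at median percentiles of 55.1 and 55.7. None of the 14 Hox window peaks in list 1 and 3 of the 23 in list 2 (13.04%) reached a fold of 10, beside 22.9% and 28.1% of all peaks. The median Hox window peak rested on 18.5 fragments in list 1 and 24 in list 2. By −log10 q, the strongest stood at the 77.0th percentile of list 1 (the site below Hoxc13) and the 85.4th of list 2 (the site beside Hoxc6).

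**Figure D4:**
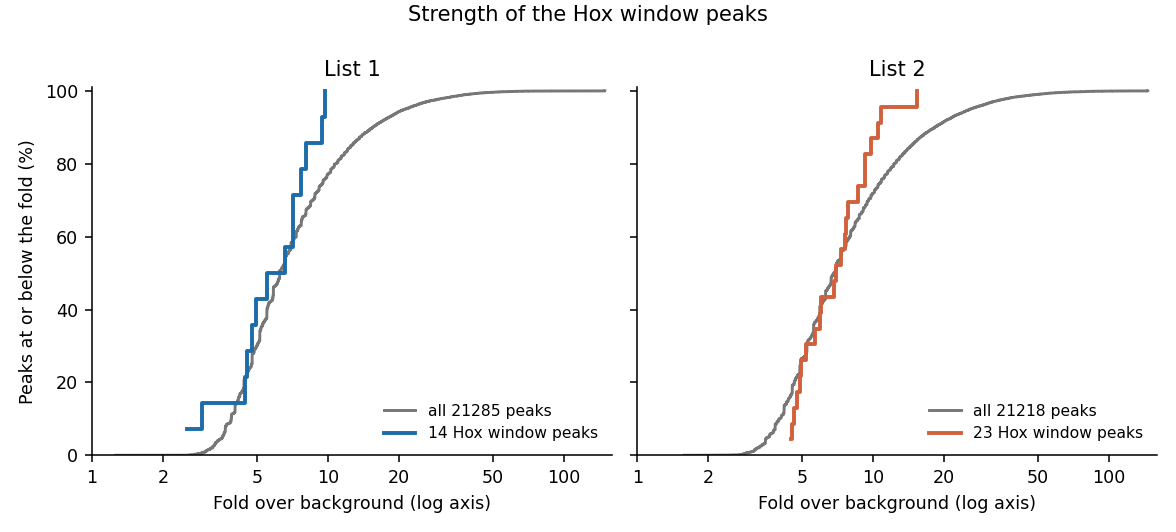
Cumulative share of peaks (y axis, %) at or below a fold over background (x axis, log axis), for all peaks of a list (grey) and for the Hox window peaks (coloured), list 1 on the left and list 2 on the right. The curves run close together at the medians (6.07 and 6.24, 6.99 and 6.83), and the Hox curves end at 9.76 and 15.3, where the grey curves go on beyond 100.

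An overlap of at least 1 bp joined 13 of the 14 Hox window peaks of list 1 to a peak of list 2, 92.9% (exact interval 66.1 to 99.8), beside 70.9% of all list 1 peaks. From the side of list 2 it was 13 of 23, 56.5% (34.5 to 76.8), beside 71.4%. Each interval includes the share of its whole list. At the 13 shared sites the fold was higher in list 2 at 11 and in list 1 at 2, and the log2 of the list 2 fold over the list 1 fold had a median of 0.20 (SD 0.38 across sites). Over all 15015 shared sites the median was 0.15 (SD 0.55), with 61.7% higher in list 2.

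**Figure D5:**
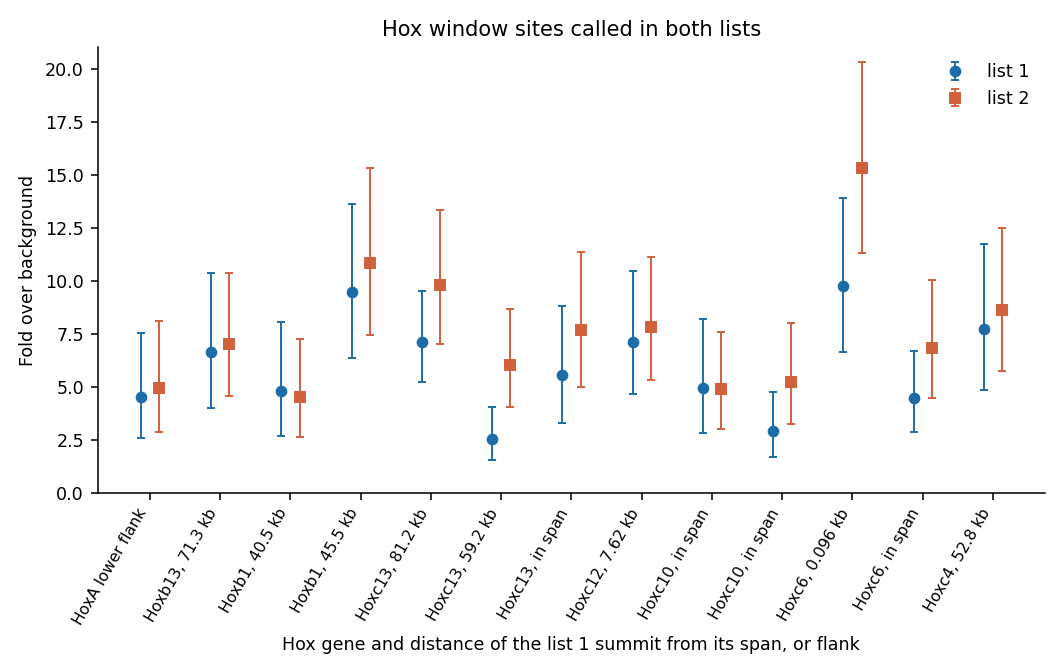
Deposited fold over background (y axis) at the 13 sites called in both lists, with 95% counting intervals, circles for list 1 and squares for list 2; the x axis names a Hox gene and the distance of the list 1 summit from its span, or the cluster's flank. The intervals overlap at every site except that 59.2 kb from Hoxc13, where they end at 4.03 and begin at 4.04. They leave out error in the local background, so a gap this small does not set the lists apart.

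The largest of these differences was at the site 59.2 kb below Hoxc13, which was 2.54-fold in list 1 (16 fragments over 5.70, interval 1.51 to 4.03) and 6.02-fold in list 2 (27 fragments over 3.65, 4.04 to 8.66). The fragments and the local background both moved with it, and the intervals leave out error in the background. The log2 ratio was 1.25 there, 0.84 at the upper Hoxc10 site, 0.65 beside Hoxc6 and 0.61 within Hoxc6. At Hotair (0.13) and at the lower Hoxc10 site (-0.01) the folds of the lists were nearly equal.

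Genes that act with or upstream of Hox proteins were described by the same 10 kb rule. The cofactors of the TALE class, which bind DNA together with Hox proteins, numbered 4 of 9 with a nearby peak in list 1 and 5 of 9 in list 2, 44.4% (13.7 to 78.8) and 55.6% (21.2 to 86.3). Both intervals include the shares of all protein-coding genes, 27.1% and 26.6%. Pknox1 was 4.98-fold and 7.30-fold. Pbx3 was 7.68-fold and Meis2 4.95-fold in list 2 alone. Summits inside the span, not adjusted for gene length, were found in 6 of 9 in each list (66.7%, 29.9 to 92.5), beside 20.7% and 20.8% of all genes, with 9 and 10 in Meis1 and 6 in each list in Pknox2. Meis1 and Pknox2 are named here after their values were seen.

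Retinoic acid signalling and Cdx factors, which set Hox expression in the embryo, showed one at 11 of 21 genes in list 1 (52.4%, 29.8 to 74.3). In list 2 the count was 10 of 21 (47.6%, 25.7 to 70.2), beside 27.1% and 26.6% of all genes. The interval of list 1 lies above the share of all genes, and that of list 2 includes it. Both take genes as independent, though in list 2 neighbouring Cyp26 genes were counted through the same peak (4.66-fold). Cdx1 had the strongest, 8.37 and 8.41 kb from a gene end (17.3-fold and 20.2-fold). Aldh1a1, a retinaldehyde dehydrogenase, was 11.0-fold and 12.9-fold. Crabp2, a retinoic acid binding protein, was 11.7-fold and 8.18-fold, at different sites 5.94 and 1.05 kb from a gene end. Gdf11, a ligand that acts on posterior Hox genes, was 4.48-fold and 9.49-fold.

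Polycomb and trithorax genes, which keep Hox clusters silent or active, showed one at 9 of 24 genes in list 1 (37.5%, 18.8 to 59.4) and at 5 of them in list 2 (20.8%, 7.13 to 42.2). The shares of all genes, 27.1% and 26.6%, lie within these intervals. Phc1 (9.18-fold and 11.2-fold), Wdr5 (7.16-fold and 6.51-fold), Kdm6b (7.34-fold and 4.88-fold) and Dot1l (6.03-fold and 5.89-fold) had the highest −log10 q in either list. In list 2 Kdm6b had the lowest −log10 q of the 5 genes, below Cbx2 (5.28-fold). For Wdr5 and Dot1l the strongest peak was a different site in each list. Of 17 other clustered homeobox genes, 2 were near a peak in list 1 (11.8%, 1.46 to 36.4) and 4 in list 2 (23.5%, 6.81 to 49.9), and these intervals also include the shares of all genes. Dlx1 and Dlx2 were counted through the same peak, 12.4-fold and 12.9-fold, 0.65 and 0.63 kb from an end of Dlx2. Dlx3 (5.53-fold) and Dlx4 (5.23-fold) had one in list 2 alone. Evx1 and Evx2, the homeobox genes next to HoxA and HoxD, had none.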

How the data were processed

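Members and gene lists were chosen with earlier results of these data known. Per the submitters' processing notes, the tools were Trimmomatic 0.33, Bowtie 1.1.2 and MACS2, and the sources used here give neither the version nor the settings of MACS2. The authors deposited 2 peak lists, each called against input per the lists' names, with a score, a fold (ratio of ChIP pileup to local background), −log10 p and −log10 q per peak. All are the authors' values of single peaks and were used only within a list or side by side. Depth is not in the lists. The fragments and background at a summit were solved from deposited fold and p, taking the fold to have 1 added to both parts and p to be Poisson, and the fragments were whole, within 0.02, for 99.99% of peaks per list. Median peaks held 19 and 22 fragments. The solution was tested on simulated data.

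The notes name mm39, but coordinates were read as GRCm38: summits within 1 kb of a coding gene end numbered 1129 (list 1) and 1072 (list 2), against at most 931 and 972 after 20 shifts. Peak numbers run without a break. Genes came from the RefSeq table of GRCm38.p6, chromosomes 1 to 19 and X, which gives spans without exons, so exon or intron position was not analysed. Gene starts were used only for the promoter windows. Density over a list was taken between the first and last summit of each chromosome. No test was run: with 1 library per list, values are descriptions with Poisson or exact binomial 95% intervals for counting error only. Genes were named as follows: all Hox genes with a nearby peak, the 3 strongest sites per window, the strongest list-only peak, and up to 4 genes of each other list. Some single genes are not reported here, though counts over whole lists include every gene. Alternatives were distance limits, stricter peaks, other overlaps, narrower windows and leaving out a cluster. Analyses used Python 3.11.15, numpy 2.4.6, pandas 2.3.3 and scipy 1.17.1.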

Additional observations from a re-analysis of the deposited data

How the results depend on the processing

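Of 52 alternative settings 35 kept the value within 1.5 times or within its interval or spread, and 17 moved it. These settings were not independent checks. Leaving out HoxD could not move the log2 ratio, as HoxD holds no shared site. In list 1 the HoxC counts repeat the Hox counts, apart from that within 50 kb. Hox genes with a nearby peak, 7 in list 1 and 12 in list 2, numbered 2 and 2 with summits within 1 kb, 4 and 7 within 5 kb, and 10 and 29 within 50 kb. With the 5000 strongest peaks they numbered 0 and 2, and in list 2 with peaks of both lists only they numbered 7. HoxC genes, 7 of 9 in each list, numbered 2 and 1 within 1 kb and 4 and 5 within 5 kb, and 0 and 2 with the 5000 strongest peaks. The shares of all genes were 5.57% and 5.23% within 1 kb, 18.1% and 17.5% within 5 kb, and 7.23% and 7.14% with the 5000 strongest peaks. These HoxC counts were added after the data were seen. The density in the Hox windows relative to the list, 1.29 and 2.14, was 0.394 and 0.395 with the 5000 strongest peaks (1 peak in each list) and 0.612 and 1.35 without HoxC. Shares of shared peaks stayed within their intervals under the other overlaps and with −log10 q of at least 5. The median log2 ratio was 0.20, with an SD of 0.38 across sites. It moved by less than this SD with summits within 100 bp and over the lowest background of the list. The same held without each cluster that holds a shared site, but the value depended on the cluster. It was 0.46 without HoxB and 0.10 without HoxC. No paired analysis was possible because each group had 1 library and no list is tied to a group.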
